A study of Mus musculus with 4 samples.

Results

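The glycan coat of a cell is built by families of Golgi enzymes, whose transcripts are described here in mouse embryonic stem (ES) cells with and without leukemia inhibitory factor (LIF). Genes were taken by symbol: fucosyltransferases (Fut), sialyltransferases (St3gal, St6gal, St6galnac and St8sia), lactosamine and galactosyl transferases (B3gnt, B3galt and B4galt), polypeptide N-acetylgalactosaminyltransferases (Galnt), N-glycan branching enzymes (Mgat), heparan sulfate polymerases (Ext and Extl), heparan sulfate sulfotransferases (Ndst, Hs2st, Hs3st and Hs6st) and carbohydrate sulfotransferases (Chst). The rule found 108 genes, with 209 probe sets, among 18193 genes that could be read on a probe set of one symbol. Each gene was read on its brightest probe set. Of the 108, 89 lay above a filter on dim signals and were tested, among 14445 tested genes. Ndst1 is not analysed here, since the annotation used gives it no probe set of its own.

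The study asked which genes depend on LIF signalling. RNA came from CGR8 cells, a single line of mouse ES cells, on gelatin-coated dishes in a medium with serum replacement. For 2 days the cells either stayed in medium with LIF (1000 U/ml, 2 arrays) or were moved to medium that lacked it (2 arrays). The labels name no separate cultures. The p-values therefore measure only how far these 4 arrays scatter, which may be technical, and the small number limits the precision of every value below.

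Glycosyltransferases take their sugars from nucleotide sugar donors, and the sulfotransferases take sulfate from an activated sulfate donor. Sialic acid and fucose cap the outer ends of N-glycans, O-glycans and glycolipids, and several ES cell surface antigens are such structures, among them the Lewis X epitope known as SSEA-1 in mouse. Heparan sulfate is a long sulfated chain on membrane and matrix proteoglycans, and its sulfate pattern is known to affect how it holds growth factors such as FGFs at the cell surface. In bulk RNA, fewer cells that carry a transcript and less transcript per cell cannot be told apart.

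The arrays matched their labels in the LIF response. Socs3, the feedback inhibitor of LIF signalling, gave 4827 and 6198 on the LIF arrays and 360 and 261 on the others (adjusted p = 0.00461, limma), and Klf4 fell as well (adjusted p = 0.0101). All 6 ES cell markers examined were above the filter on every array, with signals from 3400.6 (Utf1) to 32107 (Dppa5a). Their summed signal was at 86810 and 101155 with LIF, against 54903 and 75056 in its absence, lower without LIF with no overlap. Nanog, Zfp42, Sox2 and Utf1 read lower with no overlap (log2 changes of -1.41, -1.38, -0.52 and -0.26). For Pou5f1 and Dppa5a the groups overlapped, with log2 changes of 0.021 and -0.1. Each group has an array numbered 1 and one numbered 2 in the labels, and values are given in that order. The numbers differed in more than LIF. The ratio of 3' to 5' Actb signal was 1.32 and 1.44 for number 1, with and without LIF, but 1.83 and 1.77 for number 2. The sum of 10 primitive endoderm markers stood at 1530 and 4140 in the presence of LIF and at 1714 and 9146 after its removal, that of 6 neuroectoderm markers had signals of 2260 and 1406 with LIF, and of 3174 and 1587 without it, and that of 7 fibroblast markers gave 632 and 323 on the LIF arrays and 900 and 473 on the others. In these 3 sums the groups overlap, and within either number each sum was higher without LIF. The endoderm marker Ttr was at 2.8 and 31.4 with LIF, against 98.5 and 996 in its absence, a log2 change of 5.06 with no overlap, which did not pass the test (adjusted p = 0.241). Apoa1, below the filter, also read higher with no overlap. The groups overlapped for Gata6, Gata4, Sox17, Sox7, Dab2, Afp, Lama1 and Foxa2. Lama1 and Foxa2 had log2 changes of -0.37 and -0.12. The sum of 5 trophoblast markers stood at 331 and 355 in the presence of LIF and at 448 and 531 after its removal, with no overlap. Most of that rise came from Eomes, with 161 and 167 on the LIF arrays and 264 and 360 on the others. Cdx2, below the filter, read higher too, while Elf5, also below it, and Hand1 read lower, and Krt7 overlapped. The sum of 3 mesoderm markers had signals of 159 and 183 with LIF, and of 172 and 214 without it. The part of such cells in the results below was not tested. Changes within each number are therefore drawn for every tested gene of the set, and printed beside pooled ones for some genes.

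Among the enzymes that stood apart between the groups, St6gal1 and Chst15 read higher and St8sia1 and B3gnt2 lower without LIF. None of the 89 tested genes passed limma at an adjusted p of 0.05, where 0.145% of all tested genes did (21 of 14445). The smallest adjusted p-values were those of St6gal1 (0.0588), St8sia1 (0.0715) and Chst15 (0.0843). An unadjusted p of 0.05 or less was met by 18 of the 89 (20.2%), 13 higher and 5 lower without LIF, beside 10.9% of all tested genes (7.16% higher and 3.73% lower). A difference of at least 2-fold with no overlap also held for 18 (20.2%), 13 higher and 5 lower, beside 9.48% of all tested genes (7.36% higher and 2.12% lower). That split did not hold under other scalings, with 8 higher and 7 lower after quantile normalization and 6 higher and 9 lower with a common median per array. Both rules were met by 13 genes. For 49 of the 89 (55.1%) the groups had no overlap at all, 34 higher and 15 lower, beside 42.5% of all tested genes (27.3% higher and 15.2% lower). Quantile normalization gave 29 higher and 21 lower, beside 21.3% and 18.3% of all tested genes, and a common median 24 higher and 23 lower, beside 11.9% and 23.1%.

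The median log2 change of the 89, without LIF minus with LIF, was 0.26 (0.35 within number 1 and 0.10 within number 2), beside 0.093 over all tested genes. Setting each array to a common median moved the median of all genes to -0.2 and that of the set to -0.037. With quantile normalization these medians were 0.019 and 0.033. Leaving out array 2 of the cells without LIF gave a median of 0.52 for the set, beside 0.128 over all tested genes. Leaving out array 1 of that group gave 0.15, beside 0.086. The same arrays moved the medians of roles: that of Galnt, 0.22 with all arrays, was 0.65 and -0.16, and that of sialyltransferases, 0.26 with all arrays, was 0.75 and 0.041. For the galactosyl and lactosamine role 0.30 became 0.64 and 0.14, and 0.087 and 0.56 when array 1 or 2 with LIF was left out. For the polymerases 0.23 became 0.52 and -0.10 when array 1 or 2 with LIF was left out.

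**Figure D1:**
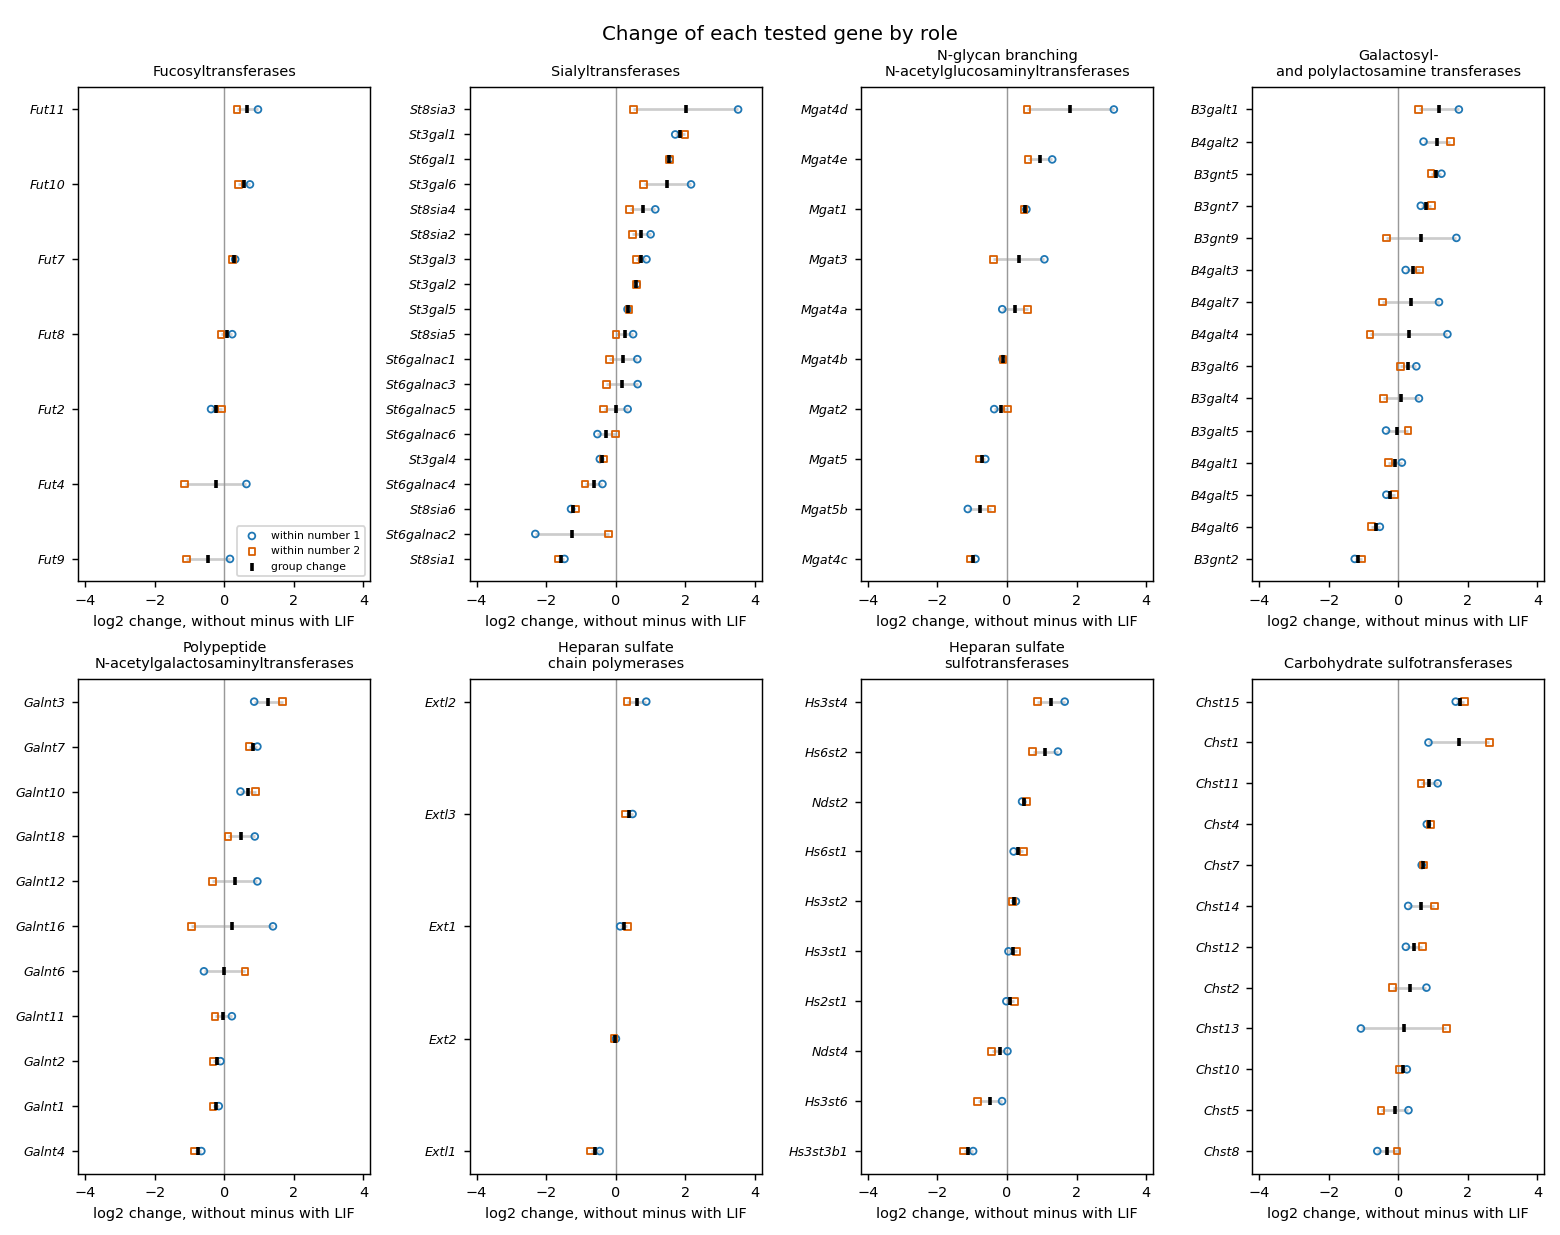
Log2 change (without LIF minus with LIF) of each of the 89 tested genes, in 8 panels by role. Black bars are the change of group means, open circles the change within number 1 and open squares that within number 2, joined by a grey line. St6gal1, St8sia1, B3gnt2 and Chst15 have both symbols close together and far from 0, while Mgat4d and St8sia3 have them far apart.

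Sialyltransferases held 7 of the 18 genes that were 2-fold apart, 36.8% of those tested in the family, beside 9.48% of all tested genes. Of 20 genes 19 were tested, 12 of them with no overlap (63.2%, beside 42.5% of all tested genes). The split was 8 higher and 4 lower without LIF (42.1% and 21.1%, beside 27.3% and 15.2% of all tested genes). With quantile normalization it was 8 and 6, beside 21.3% and 18.3% of all tested genes. With a common median it was also 8 and 6, beside 11.9% and 23.1%. The median log2 change of the 19 was 0.26 (-0.021 with quantile normalization and -0.037 with a common median), so the family had no direction that held under each scaling. St6gal1 caps galactose of N-glycans with sialic acid. It gave 306 and 321 on the LIF arrays and 893 and 937 on the others. Both arrays of either group lay close together. The change was the same within either number (log2 change 1.54, SE 0.22, adjusted p = 0.0588), while a dimmer probe set was at 85.3 and 59.8 with LIF, against 181 and 71.7 in its absence, with overlap. In the other direction, St8sia1, the GD3 ganglioside synthase, stood at 590.2 and 633 in the presence of LIF and at 213 and 200.4 after its removal (log2 change -1.56, SE 0.24, adjusted p = 0.0715). Its other 2 probe sets had changes of -1.40 and -1.43, each with no overlap.

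Promoter sequences are shown for St6gal1, St8sia1, Chst15 and B3gnt2, the 4 genes of the set with the smallest unadjusted p, which read in both directions. Each window holds 300 bases around a RefSeq transcript start, most of them upstream, from build GRCm38.p6, 5′ to 3′ on the strand of the gene. Where RefSeq gives several starts (3 for St6gal1 and 2 for Chst15) the first listed is shown. The windows are chr16:23224490-23224789 on the plus strand, chr6:142964403-142964702 on the minus strand, chr7:132317179-132317478 on the minus strand and chr11:22859686-22859985 on the minus strand. Capitals mark GGGCGG or its complement CCGCCC, the core of a GC box.
St6gal1: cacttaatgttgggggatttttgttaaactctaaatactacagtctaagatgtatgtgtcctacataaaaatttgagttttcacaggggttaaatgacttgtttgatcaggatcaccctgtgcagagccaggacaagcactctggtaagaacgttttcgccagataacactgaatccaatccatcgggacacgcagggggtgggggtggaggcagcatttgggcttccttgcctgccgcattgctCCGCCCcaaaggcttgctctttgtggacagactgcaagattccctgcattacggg
St8sia1: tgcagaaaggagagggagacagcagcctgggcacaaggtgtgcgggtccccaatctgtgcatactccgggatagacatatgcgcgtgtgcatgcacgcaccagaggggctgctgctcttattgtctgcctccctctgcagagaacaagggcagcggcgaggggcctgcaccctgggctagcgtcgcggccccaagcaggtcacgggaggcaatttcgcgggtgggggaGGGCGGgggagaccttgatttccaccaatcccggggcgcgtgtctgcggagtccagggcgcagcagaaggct
Chst15: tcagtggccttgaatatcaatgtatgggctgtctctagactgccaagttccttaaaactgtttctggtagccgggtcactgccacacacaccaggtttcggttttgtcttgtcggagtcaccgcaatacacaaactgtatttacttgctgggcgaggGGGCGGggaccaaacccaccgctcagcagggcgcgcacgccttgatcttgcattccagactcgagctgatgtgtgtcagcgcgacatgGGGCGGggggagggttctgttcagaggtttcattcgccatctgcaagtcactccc
B3gnt2: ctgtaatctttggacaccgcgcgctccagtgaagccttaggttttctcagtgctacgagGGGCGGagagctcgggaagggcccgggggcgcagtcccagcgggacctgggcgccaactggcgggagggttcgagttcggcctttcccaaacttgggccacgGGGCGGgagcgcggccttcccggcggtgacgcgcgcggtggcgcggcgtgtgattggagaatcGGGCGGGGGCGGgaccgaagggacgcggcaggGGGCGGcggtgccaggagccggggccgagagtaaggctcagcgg
The GC box core occurred 5 times in the window of B3gnt2, 2 times in that of Chst15 and 1 time in each of the others, on both strands and with overlapping matches counted. The palindrome TTCNNNGAA, the form of site that STAT factors are known to bind, was in none of these 4 windows. By symbol, 83 of the 108 genes matched, with 108 windows. TTCNNNGAA was in 3.7% of these, those of B3galt5, B4galt1, Galntl6 and Mgat2, and in 8.3% of all 32851 windows of the table. GGGCGG or CCGCCC was in 58.3% of the windows of the set and in 35.7% of all windows, which include those of noncoding and predicted genes. A match describes letters only.

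**Figure D2:**
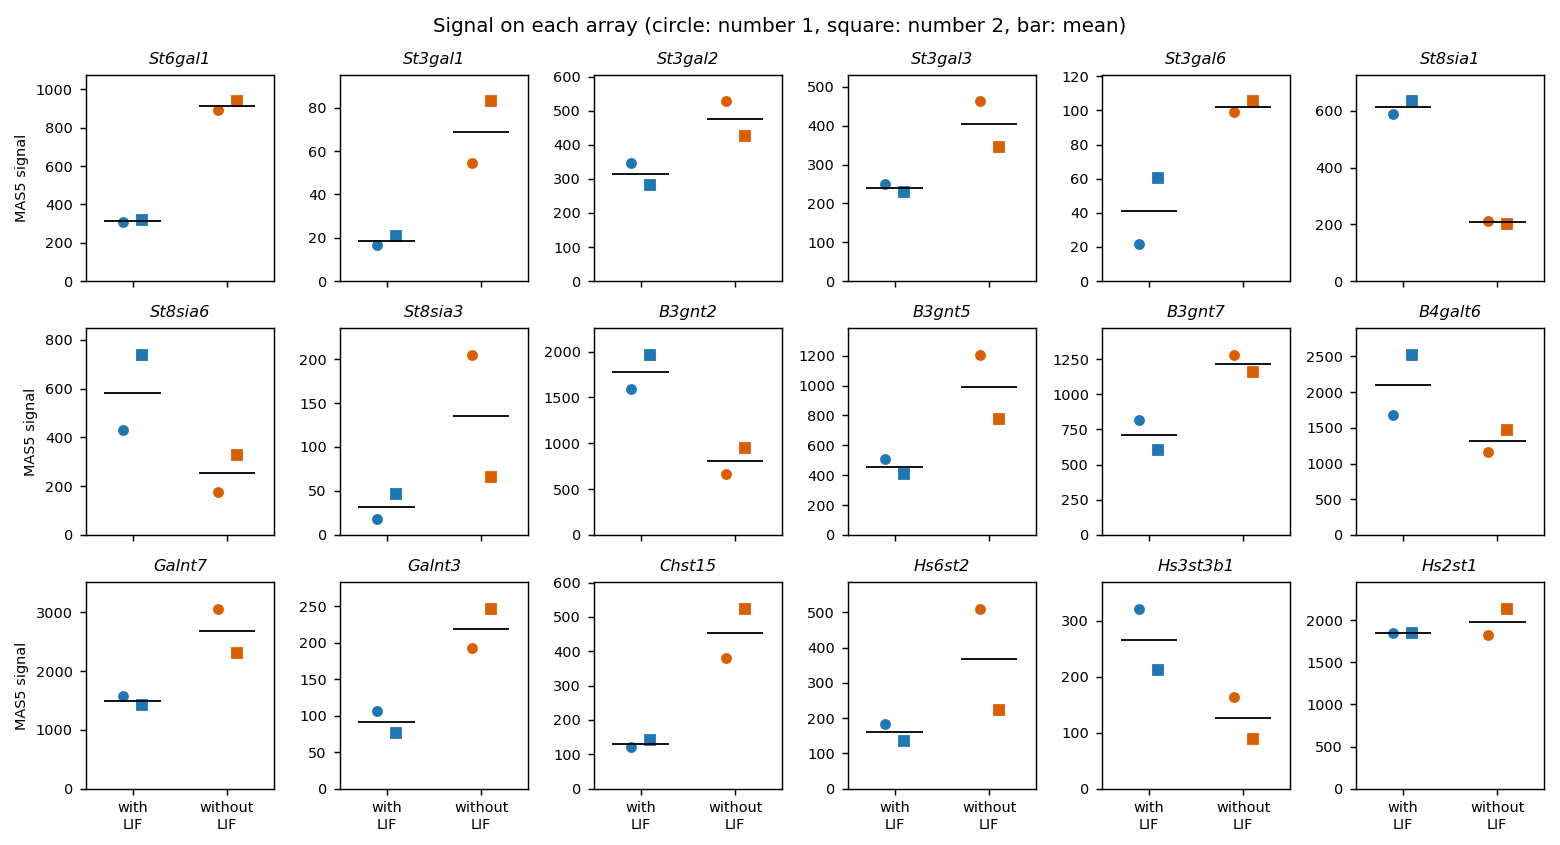
MAS5 signal (linear axes from 0) on each of the 4 arrays for 18 genes of the set, with circles for number 1, squares for number 2 and bars for the group means. St6gal1, St8sia1 and Chst15 have groups that lie far apart relative to the spread within them, and Hs2st1 reads nearly the same on all arrays.

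The St3gal enzymes cap galactose with sialic acid through another linkage. Of 6 genes, 5 read higher without LIF with no overlap (83.3%, beside 27.3% of all tested genes), with log2 changes from 0.36 to 1.85. The 5 kept their sign under both other scalings. St3gal5 was at 0.23 with quantile normalization and at 0.070 with a common median, where its groups overlapped. St3gal2 acts on glycolipids and O-glycans, and had signals of 346 and 282 with LIF, and of 527 and 425 without it (log2 change 0.60, SE 0.26, adjusted p = 0.476). Its other 2 probe sets had changes of 0.34 and 0.37, also with no overlap. St3gal3, which acts on N-glycans and glycolipids, gave 250.3 and 230 on the LIF arrays and 463 and 345 on the others (log2 change 0.74, SE 0.28, adjusted p = 0.397), and its second probe set had 0.24 with no overlap. St3gal5, the GM3 ganglioside synthase, was at 251 and 195 with LIF, against 317 and 255 in its absence. That separation was narrow, and a second probe set had a change of -0.018.

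The remaining St3gal genes were dimmer. St3gal1, which caps the core of mucin-type O-glycans, stood at 16.6 and 20.8 in the presence of LIF and at 54.4 and 82.9 after its removal (log2 change 1.85, SE 0.65, adjusted p = 0.36). Both signals with LIF lie below the filter signal of 22.9, so the size of the change is uncertain. St3gal6 had signals of 22 and 60.3 with LIF, and of 98.9 and 105 without it (log2 change 1.49, SE 0.61, adjusted p = 0.452), with 2.17 within number 1 and 0.80 within number 2. Its 2 further probe sets above the filter had changes of 0.91 and 0.81, both with overlap. St3gal4 was the exception in the family and read lower with overlap. It gave 165 and 96.9 on the LIF arrays and 120.3 and 76 on the others.

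The St8sia enzymes, which add sialic acid to sialic acid, read in both directions. St8sia6 was at 430.2 and 737 with LIF, against 177 and 329.5 in its absence (log2 change -1.22, SE 0.40, adjusted p = 0.326). Number 2 was the higher array in each group, and the change was -1.28 within number 1 and -1.16 within number 2. Its other 2 probe sets had changes of -0.52 and -0.76, with overlap. St8sia3 stood at 17.8 and 46.2 in the presence of LIF and at 204 and 65.7 after its removal (log2 change 2.01, SE 0.75, adjusted p = 0.392). That change came mostly from number 1, with 3.52 within number 1 and 0.51 within number 2. It was 2.83 with array 2 of the cells without LIF left out (adjusted p = 0.049) and 1.20 with array 1 of them left out. A second probe set had signals of 43.5 and 36.3 with LIF, and of 84.7 and 79.7 without it, a change of 1.05 with no overlap. St8sia2 and St8sia4, the polysialic acid synthases, had log2 changes of 0.74 and 0.77 (adjusted p = 0.664 and 0.752), with overlap for St8sia4.

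The St6galnac enzymes put sialic acid on N-acetylgalactosamine of O-glycans and gangliosides. Of 6 genes, 2 read lower with no overlap (33.3%, beside 15.2% of all tested genes) and 0 higher (beside 27.3%). St6galnac2 gave 189 and 67.4 on the LIF arrays and 38 and 58.5 on the others (log2 change -1.26, SE 0.61, adjusted p = 0.517). Array 1 with LIF set most of that, with -2.31 within number 1 and -0.20 within number 2, and its second probe set had -1.07 with overlap. St6galnac4 was at 134 and 136 with LIF, against 103 and 73.9 in its absence, and its second probe set had a change of -0.025 with overlap. St6galnac5 followed the number rather than LIF. It stood at 58.1 and 16.3 in the presence of LIF and at 73.8 and 12.8 after its removal.

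The transferases that extend lactosamine chains, repeats of galactose and N-acetylglucosamine, stood on both sides of 0. Of 20 genes of this role 15 were tested. The groups had no overlap for 9 (60%, beside 42.5% of all tested genes). Of these 6 were higher and 3 lower without LIF (40% and 20% of the 15, beside 27.3% and 15.2%). The median log2 change was 0.30 (0.095 with quantile normalization and 0.004 with a common median). B3gnt2, the main polylactosamine synthase, had signals of 1591 and 1959.7 with LIF, and of 666 and 944 without it (log2 change -1.15, SE 0.24, adjusted p = 0.131). Both arrays without LIF were lower, and so were they on the second probe set, which gave 564 and 594 on the LIF arrays and 329 and 277 on the others. B3gnt5, which starts the lacto-series glycolipids, was at 509 and 405 with LIF, against 1203 and 775 in its absence (log2 change 1.09, SE 0.28, adjusted p = 0.209). The groups did not overlap, nor did they on its second probe set, with a change of 0.90. B3gnt7, which acts in keratan sulfate chains, stood at 817 and 601 in the presence of LIF and at 1278 and 1158 after its removal (log2 change 0.80, SE 0.23, adjusted p = 0.26).

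Of the galactosyltransferases, B4galt6, a lactosylceramide synthase, had signals of 1680.3 and 2517 with LIF, and of 1162 and 1471 without it (log2 change -0.65, SE 0.25, adjusted p = 0.409). Its 3 further probe sets had changes of -0.37, -0.54 and -0.43, the last with overlap. The related B4galt5 had a log2 change of -0.23 (SE 0.23), and a second probe set read the other way at 0.79. B4galt2, an enzyme of N-glycan lactosamine, gave 128 and 105 on the LIF arrays and 211 and 296 on the others (log2 change 1.11, SE 0.34, adjusted p = 0.295), but its second probe set had 0.18 with overlap. B3galt1 was at 29.4 and 47.2 with LIF, against 98.2 and 71 in its absence (log2 change 1.16, SE 0.54, adjusted p = 0.499). B4galt1, the common galactosyltransferase of N-glycans, stood at 476 and 578 in the presence of LIF and at 511 and 473 after its removal. These arrays overlapped, with a log2 change of -0.095 (95% interval from -0.64 to 0.46).

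B4galt7 and B3galt6 build the linker that joins glycosaminoglycan chains to their core proteins. Their log2 changes were 0.36 (SE 0.46) and 0.29 (SE 0.34), with overlap for B4galt7. B3galt5, a galactosyltransferase of glycolipids and lactosamine chains, had signals of 7.8 and 154 with LIF, and of 6.1 and 186 without it. It was high on both arrays numbered 2 and dim on both numbered 1. The primitive endoderm factor Sox17 had the same order, at 80.6 and 598 with LIF and 118 and 982 otherwise, and the part of such cells was not tested. A second probe set of B3galt5 gave 12 and 43.9 on the LIF arrays and 72 and 25.1 on the others, in another order.

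Galnt enzymes start mucin-type O-glycans by placing N-acetylgalactosamine on serine or threonine. Of 18 genes 11 were tested and 5 had no overlap (45.5%, beside 42.5% of all tested genes). The split was 3 higher and 2 lower (27.3% and 18.2%, beside 27.3% and 15.2% of all tested genes). With a common median it was 3 and 3, beside 11.9% and 23.1%. The median log2 change of the 11 was 0.22 (-0.045 with quantile normalization and -0.071 with a common median). Galnt7, which prefers peptides that already carry the sugar, was at 1581 and 1415 with LIF, against 3056 and 2313 in its absence (log2 change 0.83, SE 0.21, adjusted p = 0.196). Its other probe sets had changes of 0.88 and 0.23, both with overlap and both lower on number 2 in each group. Galnt3, an initiating enzyme, stood at 106 and 76.7 in the presence of LIF and at 193 and 246 after its removal (log2 change 1.27, SE 0.36, adjusted p = 0.26). Galnt4, which also prefers glycosylated peptides, had signals of 122 and 194 with LIF, and of 77.2 and 107 without it (log2 change -0.76, SE 0.42, adjusted p = 0.565). Its second probe set read lower too, and gave 104 and 106 on the LIF arrays and 43.4 and 7.1 on the others. The widely expressed Galnt1 and Galnt2 had log2 changes of -0.24 (95% interval from -0.68 to 0.19) and -0.22 (95% interval from -0.77 to 0.33). Those of Galnt11 and Galnt6 were -0.026 (SE 0.22) and 0.004 (SE 0.35).

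The Mgat enzymes set how many antennae an N-glycan carries. All 10 genes were tested and 6 had no overlap (60%, beside 42.5% of all tested genes). On the deposited scale 3 read in either direction (30% each, beside 27.3% higher and 15.2% lower of all tested genes). Quantile normalization gave 1 higher and 5 lower, beside 21.3% and 18.3% of all tested genes. A common median gave 0 higher and 5 lower, beside 11.9% and 23.1%. The median log2 change of the 10 was 0.052 (-0.053 with quantile normalization and -0.24 with a common median). Mgat1, which opens the path to hybrid and complex N-glycans, was at 361 and 378 with LIF, against 532 and 531 in its absence (log2 change 0.52, SE 0.23, adjusted p = 0.473). Mgat5, which makes the branch favoured for polylactosamine, stood at 167 and 162 in the presence of LIF and at 108 and 93.1 after its removal (log2 change -0.71, SE 0.35, adjusted p = 0.516). Its second probe set had a change of 0.39 with overlap, so the 2 disagree in sign. A further one, below the filter, gave 12.5 and 13.5 on the LIF arrays and 50.9 and 23.4 on the others, also higher. Mgat5b, a paralog, had signals of 196 and 147 with LIF, and of 89.7 and 108 without it (log2 change -0.79, SE 0.36, adjusted p = 0.495). Mgat4d gave 4.8 and 30.8 on the LIF arrays and 40.4 and 45.9 on the others (log2 change 1.82, SE 1.06, adjusted p = 0.587), and this change rested on 1 signal far below the filter. Mgat2, Mgat4a and Mgat4b, which add further antennae, had log2 changes of -0.18, 0.23 and -0.12, each with overlap.

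Of 8 fucosyltransferase genes 7 were tested. Of these 3 had no overlap (42.9%, beside 42.5% of all tested genes) and 0 were 2-fold apart (beside 9.48%). The median log2 change of the 7 was 0.065 (-0.12 with quantile normalization and -0.23 with a common median). Fut9, which makes the Lewis X epitope SSEA-1 in mouse ES cells, was at 160.2 and 304 with LIF, against 179 and 142 in its absence. The groups overlapped and array 2 with LIF stood above the other 3 (log2 change -0.47, SE 0.40, adjusted p = 0.728), with 0.16 within number 1 and -1.10 within number 2. They had no overlap with quantile normalization (log2 change -0.61) or a common median (-0.76). The other probe sets of Fut9 had -0.88 and 0.79, both with overlap. Fut4, another Lewis X synthase, stood at 59.5 and 61.2 in the presence of LIF and at 92.4 and 27.8 after its removal. Its 2 arrays without LIF lay on either side of the rest (log2 change -0.25, SE 0.68). Fut8, the core fucosyltransferase of N-glycans, had signals of 687 and 877 with LIF, and of 804 and 820.2 without it, a log2 change of 0.065 (95% interval from -0.45 to 0.58). Fut11 gave 149 and 138 on the LIF arrays and 290.4 and 177 on the others (log2 change 0.66, SE 0.36, adjusted p = 0.558), with overlap on its 2 further probe sets. Fut10 was at 59.7 and 69.5 with LIF, against 99.5 and 92 in its absence (log2 change 0.57, SE 0.43, adjusted p = 0.688), but a further probe set had -0.72 with no overlap.

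Of the 5 heparan sulfate polymerase genes, all tested, 3 had no overlap (60%, beside 42.5% of all tested genes). Of the 5, 0 were 2-fold apart (beside 9.48%) or had an unadjusted p of 0.05 or less (beside 10.9%). Their median log2 change was 0.23 (0.20 with quantile normalization and -0.063 with a common median). The copolymerase subunit Ext1 stood at 997 and 631 in the presence of LIF and at 1091 and 794 after its removal, with overlap, and number 2 was the lower array in each group. Its log2 change was 0.23 (95% interval from -0.46 to 0.92), and -0.063 with a common median, and a second probe set had 0.55 with overlap. Its partner Ext2 had signals of 485 and 370 with LIF, and of 487 and 358 without it, a log2 change of -0.020 (95% interval from -0.68 to 0.64). A second, dim probe set of Ext2 gave 77.4 and 55.6 on the LIF arrays and 32.2 and 51.9 on the others, a change of -0.68 with no overlap. Extl3, which starts the chain, was at 466 and 387 with LIF, against 653 and 473 in its absence (log2 change 0.39, SE 0.26, adjusted p = 0.649), while its second probe set had -0.11 with overlap. Extl2, a related enzyme of the linker region, stood at 207 and 175 in the presence of LIF and at 380.2 and 219.5 after its removal (log2 change 0.60, SE 0.35, adjusted p = 0.589), with 0.50 and no overlap on its second probe set. Extl1 read lower, with a log2 change of -0.59 (SE 0.42).

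Of 13 heparan sulfate sulfotransferase genes 10 were tested and 4 had no overlap (40%, beside 42.5% of all tested genes). The median log2 change of the 10 was 0.18 (0.037 with quantile normalization and -0.11 with a common median). Hs2st1, which sulfates the uronic acid, had signals of 1848 and 1849.7 with LIF, and of 1825 and 2134 without it. All 4 arrays lay close together, and the log2 change was 0.094 (95% interval from -0.34 to 0.52). Its 3 further probe sets had 0.19, -0.097 and 0.26, each with overlap. Hs6st1, an enzyme of glucosamine sulfation, gave 514 and 348 on the LIF arrays and 586 and 480.4 on the others, with overlap (log2 change 0.33, SE 0.28). The related Hs6st2 was at 185 and 134 with LIF, against 509.7 and 224 in its absence (log2 change 1.10, SE 0.44, adjusted p = 0.427). Array 1 without LIF stood above the other 3, with 1.46 within number 1 and 0.73 within number 2. The change was 1.69 with array 2 of the cells without LIF left out (adjusted p = 0.0237) and 0.50 with array 1 of them left out. A dim probe set below the filter stood at 7.5 and 4.4 in the presence of LIF and at 80.3 and 40.9 after its removal.

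The Hs3st enzymes, which make rare modifications late in the chain, read both ways. Hs3st3b1 had signals of 321 and 212 with LIF, and of 164 and 89 without it (log2 change -1.11, SE 0.41, adjusted p = 0.392), with -0.97 within number 1 and -1.25 within number 2. Its probe sets disagreed. A dimmer one gave 66 and 86.9 on the LIF arrays and 120.1 and 95 on the others, a change of 0.50 with no overlap, and another had -0.55 with overlap. One below the filter also read higher, at 1.9 and 4.8 with LIF and at 8.3 and 6.8 without it. Hs3st4 was at 21.4 and 24.5 with LIF, against 67.6 and 44.7 in its absence (log2 change 1.26, SE 0.64, adjusted p = 0.537), with the first of these signals below the filter. Hs3st1, which makes the antithrombin site of heparin, stood at 87.1 and 169 in the presence of LIF and at 89.6 and 205 after its removal, higher on number 2 in each group. Ndst2, an N-deacetylase and N-sulfotransferase that acts early on the new chain, had signals of 198 and 141 with LIF, and of 267 and 207 without it (log2 change 0.50, SE 0.33, adjusted p = 0.642).

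The carbohydrate sulfotransferases had a median log2 change of 0.56 (0.32 with quantile normalization and 0.26 with a common median) over 12 tested of 14 genes. Of the 12, 7 read higher with no overlap (58.3%, beside 27.3% of all tested genes) and 0 lower (beside 15.2%). With those scalings 5 and 4 read higher with no overlap (beside 21.3% and 11.9%) and 1 read lower, Chst5 (beside 18.3% and 23.1%). Chst15, which adds a further sulfate to chondroitin and makes its disulfated form, gave 122 and 141 on the LIF arrays and 381 and 523 on the others (log2 change 1.77, SE 0.30, adjusted p = 0.0843). Both arrays without LIF lay well above both with LIF, with 1.65 within number 1 and 1.90 within number 2. A dim probe set below the filter was at 12.4 and 5.2 with LIF, against 93.9 and 20.4 in its absence. Chst11, which sulfates N-acetylgalactosamine of chondroitin, stood at 82.5 and 85.9 in the presence of LIF and at 181 and 135 after its removal (log2 change 0.89, SE 0.38, adjusted p = 0.457), and its second probe set overlapped at 0.74. Chst12, of the same activity, read higher with no overlap (log2 change 0.45, SE 0.29, adjusted p = 0.623). Chst14, the dermatan enzyme, had signals of 107 and 77.2 with LIF, and of 129.7 and 158 without it (log2 change 0.66, SE 0.39, adjusted p = 0.593). Chst1, of keratan sulfate, gave 74.4 and 14.8 on the LIF arrays and 136 and 90.9 on the others (log2 change 1.74, SE 0.80, adjusted p = 0.494). Its array 2 with LIF lay below the filter, and the change was 0.87 within number 1 and 2.62 within number 2. Chst10, which makes the HNK-1 epitope, was at 191 and 115 with LIF, against 226 and 119 in its absence, with overlap.

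**Figure D3:**
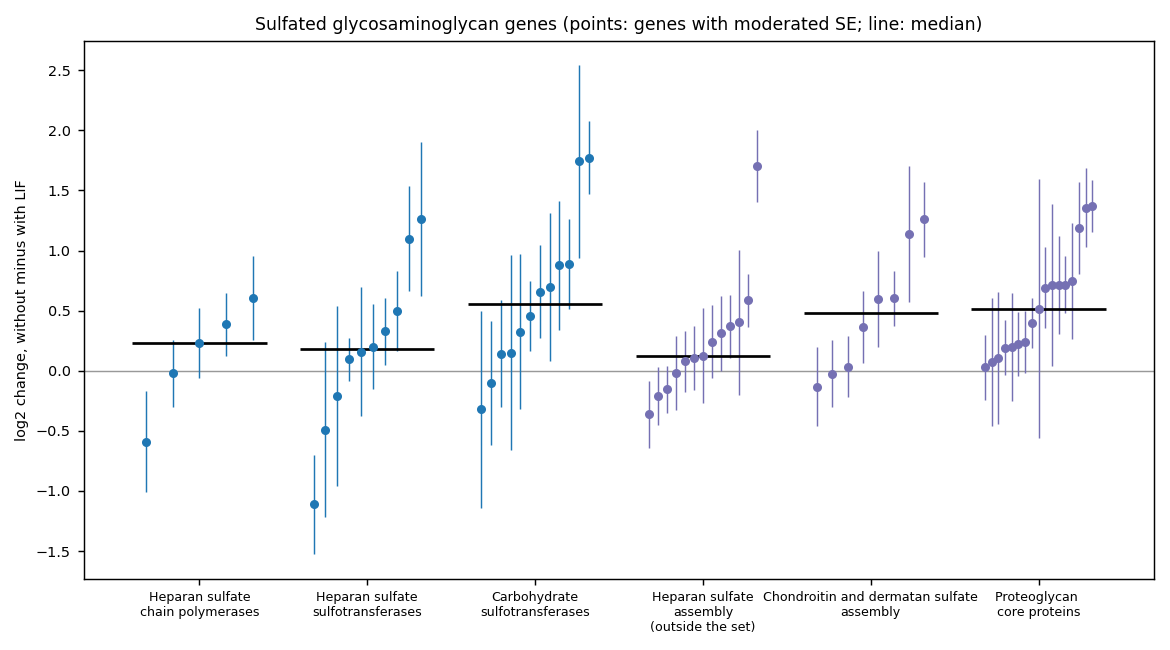
Log2 change (without LIF minus with LIF) of tested genes of sulfated glycosaminoglycan synthesis, with moderated standard errors, and the median of each group as a line. Blue points are the polymerases and sulfotransferases of the set and purple points are other genes of these pathways. The 17 proteoglycan core proteins lie above 0 on the deposited scale (14 with quantile normalization and 10 with a common median), and Sulf1, at 1.70, stands apart in its group.

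Other genes of the same pathways, in 6 lists, also had 0 calls at an adjusted p of 0.05 with all 4 arrays. Sulf1 was called with LIF array 1 left out (adjusted p = 0.0477) and with either array of the cells without LIF left out (0.0285 and 0.00472), and Col18a1 with either of the latter left out (0.0128 and 0.0162). Of 17 tested proteoglycan core proteins 17 had changes above 0, as did 8578 of all 14445 tested genes. Those of the 17 ran from 0.027 to 1.37 with a median of 0.52, beside 0.093 over all genes. For 11 of the 17 the sign was the same within both numbers. With quantile normalization 14 were above 0 (median 0.42) and with a common median 10 (median 0.22). On the deposited scale, 8 had no overlap (47.1%, beside 42.5% of all tested genes) and 4 had an unadjusted p of 0.05 or less (23.5%, beside 10.9%). Col18a1, a basement membrane heparan sulfate proteoglycan, stood at 1430.3 and 1024 in the presence of LIF and at 3044 and 3215 after its removal (log2 change 1.37, SE 0.22, adjusted p = 0.0769). Tgfbr3, a coreceptor for TGF-beta ligands, had signals of 105 and 149.8 with LIF, and of 286 and 359 without it (log2 change 1.36, SE 0.33, adjusted p = 0.189). The syndecan Sdc2 gave 72 and 86 on the LIF arrays and 212 and 151 on the others (log2 change 1.18, SE 0.38, adjusted p = 0.324). Srgn, a proteoglycan of secretory granules, followed the number and was at 695 and 3928 with LIF, against 812 and 6867 in its absence. Gpc5, of the same list but below the filter and not tested, stood at 26.2 and 24.8 in the presence of LIF and at 16.1 and 6 after its removal.

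Of 13 tested genes of heparan sulfate assembly outside the set, 2 met an unadjusted p of 0.05 (15.4%, beside 10.9% of all tested genes), both higher. Sulf1, an extracellular sulfatase that removes sulfate from finished chains, stood at 705 and 411 in the presence of LIF and at 2018 and 1524 after its removal (log2 change 1.70, SE 0.30, adjusted p = 0.092), with 1.52 within number 1 and 1.89 within number 2. Its paralog Sulf2 had signals of 3685 and 4687 with LIF, and of 2941 and 4393 without it, with overlap (log2 change -0.21, SE 0.24). The other was Ugdh, which makes the uronic acid donor (log2 change 0.59, SE 0.22, adjusted p = 0.399). Among 8 tested chondroitin and dermatan genes 2 met that p (25%, beside 10.9% of all tested genes), both higher. Ust, the uronyl sulfotransferase, gave 105 and 111 on the LIF arrays and 268 and 249 on the others (log2 change 1.26, SE 0.31, adjusted p = 0.191). The other was Csgalnact2 (log2 change 0.60, SE 0.23, adjusted p = 0.4), and its paralog Csgalnact1, which starts the chondroitin chain, was at 31.1 and 34.2 with LIF, against 91.7 and 56.2 in its absence (log2 change 1.14, SE 0.56, adjusted p = 0.526). The polymerase Chsy1 and the epimerase Dse had log2 changes of -0.024 and 0.032.

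Of 22 glycolipid and O-glycan genes 2 met an unadjusted p of 0.05 (9.09%, beside 10.9% of all tested genes), Lfng and Pofut2, both higher. Lfng, which lengthens O-fucose on Notch receptors, stood at 56.6 and 64.5 in the presence of LIF and at 169.9 and 172 after its removal (log2 change 1.5, SE 0.38, adjusted p = 0.202). A4galt, of the globo-series, had signals of 13.2 and 56 with LIF, and of 79.1 and 63.5 without it (log2 change 1.38, SE 0.79, adjusted p = 0.586), with 2.58 within number 1 and 0.18 within number 2. Ugcg, which starts most glycolipids, had a log2 change of 0.017 (SE 0.21). For nucleotide sugar supply 0 of 17 genes and for N-glycan assembly and trimming 0 of 19 met that p, with medians of 0.22 and 0.048 (-0.069 and -0.24 with a common median).

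Several probe sets of a gene give further readings of the same RNA. Of the 108 genes 62 had more than 1 probe set, and 57 further probe sets lay above the filter. The sign of the change was that of the probe set used in 44 of these and not in 13. All probe sets above the filter had no overlap, in the same direction, for B3gnt2, B3gnt5, St8sia1, St8sia2, St8sia3 and St3gal2 among others. Fut10, Hs3st3b1 and B4galt5 had a further probe set that read the opposite way with no overlap.

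**Figure D4:**
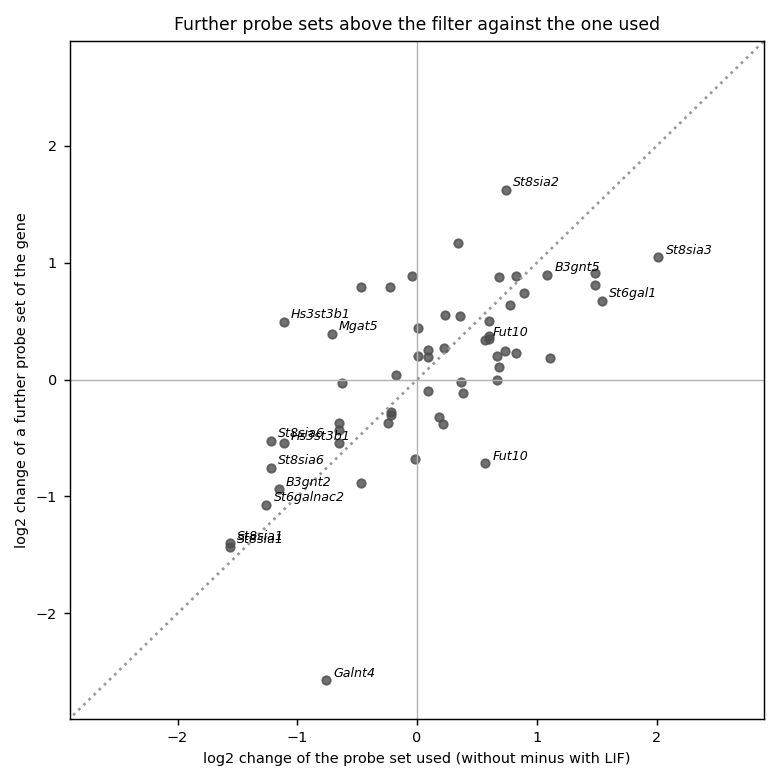
Log2 change of each of 57 further probe sets above the filter against that of the probe set used for the same gene, with a dotted line where they are equal. Most points lie where both readings have the same sign, and those of Hs3st3b1, Mgat5 and Fut10 lie where the signs differ.

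The 19 genes below the filter were not tested. St6gal2, the paralog of St6gal1, gave 0.6 and 11.3 on the LIF arrays and 135 and 31 on the others. B3gnt3, of mucin-type lactosamine, was at 44.5 and 32.6 with LIF, against 5.9 and 2.2 in its absence, and Galnt13 stood at 6.4 and 15.3 in the presence of LIF and at 23.9 and 24.7 after its removal. For these 3 genes both arrays of one group lay above the filter signal and both of the other below it. The signals of the other 16 genes ranged from 0.7 (B3galt2) to 50.2 (Chst3).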

How the data were processed

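The authors deposited 1 table of linear signal intensity per probe set for 4 Affymetrix arrays, made with MAS5 per the submitters' processing notes (version and build not given in the sources used here). The deposited signals share a trimmed mean of 499.7 to 501.4 per array, but not a median. The median signal was 69.9 and 59.6 with LIF, against 95.5 and 65.5 in its absence, highest on array 1 without LIF. Genes of the set, tested or not, that lay below the filter signal numbered 26 and 23 on the LIF arrays and 17 and 18 on the others. For the set, counts of genes higher without LIF were smaller with a common median per array.

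Of 45101 probe sets 34945 had 1 gene symbol, 932 had several and 9160 had none in the platform annotation, and 64 controls were left out. All 108 genes of the set were in the RefSeq table by Entrez identifier. The single value at 0 was raised to 0.1. The filter kept genes whose mean log2 signal passed the 30th percentile of probe sets (4.51, a signal of 22.9). Log2 signals of the groups were compared in limma 3.58.1 under R 4.3.3 (lmFit, eBayes with trend, two-sided, 2 residual degrees of freedom), with Benjamini-Hochberg adjustment over all tested genes at 0.05. SE is the moderated standard error. The fit was tested on simulated data. Values on every array are given for genes 2-fold apart with no overlap, for 2 of each role with the smallest p and for a list of names; every member could be named. The members, roles and pathway lists were chosen with earlier results of these data known. Alternatives were other filters, a pseudocount, 2 scalings, other eBayes settings, other probe set rules, the number as a block and each array left out. The plots used matplotlib 3.10.9 (Python 3.11.15).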

Additional observations from a re-analysis of the deposited data

How the results depend on the processing

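Calls among the 89 genes depended on the fit. Their count was 0 as reported, 1 with a common median per array (St8sia1), 1 with robust eBayes (St6gal1), 3 at an adjusted p of 0.1 (St6gal1, St8sia1 and Chst15), and 0 to 9 with single arrays left out, where the lone array of a group is assumed to vary like the other group. Over all genes 21 became 41 with a filter at the 50th percentile, 40 with a pseudocount of 14.3, 10 with quantile normalization, 131 with a common median, 0 in limma without the eBayes trend (11% at an unadjusted p of 0.05 or less), 52 with robust eBayes, 12 with the mean of probe sets, 140 at an adjusted p of 0.1, and 7 to 496 with single arrays left out. The share of calls that were higher was 33.3% as reported, 46.3%, 45% and 50% with the stricter filter, the pseudocount and robust eBayes, and 36.6% with a common median.

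A replicate block, by number, gave 975 calls, 61.1% of them higher, and 11 among the 89: St6gal1, B3gnt2, St8sia1, Chst15, B3gnt5, Galnt7, St8sia6, B3gnt7, B4galt6, Hs6st2 and Hs3st3b1 (limma, adjusted p from 0.00085 to 0.0447). Differences between numbers correlated at 0.29 between the groups over tested genes. With 2 pairs, this does not show that the numbers mark shared cultures. Of the pathway genes named with full values, the block called Sulf1 (0.000289), Col18a1 (0.000722), Tgfbr3 (0.0137), Ust (0.0283) and Lfng (0.0404).

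Genes 2-fold apart numbered 18 of 89 as reported and 11 of 64 with the stricter filter. They numbered 10 of 79 with the mean of probe sets and 17 to 27 with single arrays left out. The share of all tested genes moved too, from 9.48% as reported to 6.16%, 9.01% and 11.9% to 17.4% under these settings. It was 7.53% with quantile normalization and 7.99% with a common median. The split of the set's genes was 13 higher and 5 lower as reported, 6 and 5 with the stricter filter, 7 and 3 with the mean of probe sets, 8 and 7 with quantile normalization (15 genes) and 6 and 9 with a common median (15 genes). The median of 0.26 was 0.033 with quantile normalization, -0.037 with a common median and 0.15 to 0.52 with single arrays left out. Changes that turned sign under some setting include those of Hs3st3b1, 2-fold apart as reported (-1.11), and Mgat5 (-0.71). With a common median Ext1, Fut8 and Hs2st1 had -0.063, -0.23 and -0.20. With the mean of probe sets Fut8, Hs3st3b1 and Mgat5 had -0.67, 0.038 and 0.36. With single arrays left out the ranges were -0.24 to 0.20 for Ext2, -0.11 to 0.24 for Fut8, -0.10 to 0.56 for Ext1, -0.24 to 0.046 for B4galt1, -1.12 to 0.62 for Fut4 and -0.019 to 0.21 for Hs2st1. Role medians moved as well with single arrays left out: 0.041 to 0.75 for sialyltransferases, 0.087 to 0.64 for galactosyl and lactosamine transferases, -0.16 to 0.65 for Galnt, -0.20 to 0.11 for Mgat, -0.11 to 0.24 for Fut, -0.10 to 0.52 for heparan sulfate polymerases, 0.083 to 0.27 for heparan sulfate sulfotransferases and 0.35 to 0.77 for Chst. The causes were not tested. Signals near the filter limit St3gal1, St3gal6, St8sia3, Mgat4d, Hs3st4 and Chst1.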
